A study of Rattus norvegicus with 4 samples.

Results

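The mitochondrial ribosome, or mitoribosome, translates the few proteins that the mitochondrial genome encodes, all of them parts of the respiratory chain and ATP synthase. Its RNAs are made inside the organelle, but each of its proteins is encoded in the nucleus, translated in the cytosol and imported. In heart muscle, which draws most of its ATP from respiration, inherited defects of several mitoribosomal proteins cause cardiomyopathy. The genes described here are those whose symbol begins with Mrpl (large subunit) or Mrps (small subunit) followed by a number. There were 76 such genes, 46 named for the large and 30 for the small subunit, among 22250 genes in the count tables. The rule used names alone and no measured value.

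Ribosome footprints, the mRNA fragments protected by cytosolic ribosomes, were counted in ventricular cardiomyocytes of Wistar rats aged 1 to 2 days, a primary culture made by trypsin digestion and a Percoll gradient. The cells received a control siRNA (siSCR) or an siRNA against Cpeb4 (siCpeb4) for 72 h, with 2 libraries per group, and footprints came from RNase I-treated polysome fractions. Cpeb4 encodes an RNA-binding protein that acts on mRNA 3′ ends to control poly(A) tail length and translation, and the study asked what its loss does to isolated cardiac myocytes. The protocol also names 250 nM Torin1, an mTOR inhibitor, for 24 h, and does not say which samples received it. The molecule is labelled polyA RNA although the libraries are described as footprints. Whether the 2 libraries of a group are separate cultures is not stated, and the p-values therefore rest on a spread that may be technical.

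Libraries held 3554011 to 5910911 gene counts in the length classes kept by the authors, which is not their whole depth. The targeted gene matched the labels, with 351 and 253 Cpeb4 footprints in siSCR replicates 1 and 2 and 40 and 59 in siCpeb4 replicates 1 and 2. Of 10 cardiomyocyte markers, 9 had a row and summed to 47236 to 55506 CPM per library (CPM, counts per 1000000 gene counts of that library). Fibroblast markers, with Col1a2 listed at 0, summed to 12026 to 13061 CPM in siSCR and 9148 to 9691 CPM in siCpeb4 libraries. Most of this sum was Col1a1, with group means of 8227 CPM in siSCR and 5723 CPM in siCpeb4. Col1a1 was called lower, with a log2 fold change of -0.55 ± 0.11 (SE, edgeR adjusted p = 0.00339). Col3a1 and Pdgfra also lay lower without overlap, while Dcn, Lum and Postn overlapped between the groups. All 6 tested fibroblast markers had negative log2 fold changes. Of them 4 (66.7%, beside 16.1% of all genes) had an unadjusted edgeR p under 0.05. Endothelial markers lay between 107 and 130 CPM, leukocyte markers between 315 and 527 CPM and smooth muscle markers between 197 and 215 CPM over the 4 libraries. The part of these cells in the results below was not tested. In bulk libraries, fewer cells of a type and less RNA per cell cannot be told apart.

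NRF1, the ETS factor GABP and YY1 are established activators of nuclear genes for mitochondria, and promoters of the family were searched for their letters. RefSeq promoter windows of 300 bases (250 before and 50 after a start site, build GRCr8) were found for 61 of the 76 genes, in 63 windows, read on both strands for 3 motifs. The ETS core CCGGAAG was present in 33.3% of the members' windows and in 10.7% of the 21851 windows of all protein-coding genes. The YY1 letters AAGATGGCG were present in 14.3% and 2.07%, and the NRF1 letters GCGCATGCG in 7.94% and 1.93%, in the same order. Any of the 3 was held by 30 of the 63 windows (47.6%), against 13.8% of all windows, so most members' windows held none. No matches of different motifs overlapped in the members' windows. Matches describe letters, not bound sites, and these libraries do not measure promoters.

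The 5 members with the NRF1 letters, and Mrps18a with the ETS core, are printed as the 150 bases before the start site, with every match in capitals; a run of 10 capitals is a pair of overlapping NRF1 matches on opposite strands. Mrpl17 (chr1:169575700-169575849, minus strand), Mrpl22 (chr10:42845760-42845909, plus strand), Mrpl32 (chr17:55260501-55260650, plus strand), Mrpl44 (chr9:88554900-88555049, plus strand), Mrps18b (chr20:2842856-2843005, plus strand) and Mrps18a (chr9:22367381-22367530, minus strand) are placed in GRCr8. The NRF1 set was chosen because it held Mrpl17, above 0 after Cpeb4 siRNA, and Mrpl22 and Mrps18b, below 0. Mrps18a was added as a paralogue of Mrps18b. None of the printed genes passed the test described below. The closing capitals of Mrps18b are the first letters of an ETS core that crosses the start site, and the Mrps18a window also held the YY1 letters just past the printed stretch.
Mrpl17: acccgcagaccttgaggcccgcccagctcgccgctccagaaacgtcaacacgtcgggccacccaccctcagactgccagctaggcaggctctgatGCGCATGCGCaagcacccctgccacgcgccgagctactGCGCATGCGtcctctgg
Mrpl22: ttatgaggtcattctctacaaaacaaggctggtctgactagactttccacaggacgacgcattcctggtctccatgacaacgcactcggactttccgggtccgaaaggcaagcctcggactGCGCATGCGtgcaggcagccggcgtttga
Mrpl32: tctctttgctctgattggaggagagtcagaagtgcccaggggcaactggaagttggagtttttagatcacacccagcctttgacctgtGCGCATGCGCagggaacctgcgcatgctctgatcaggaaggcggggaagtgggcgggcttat
Mrpl44: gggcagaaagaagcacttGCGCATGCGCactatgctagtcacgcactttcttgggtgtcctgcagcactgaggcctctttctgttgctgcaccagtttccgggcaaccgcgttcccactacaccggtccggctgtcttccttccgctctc
Mrps18b: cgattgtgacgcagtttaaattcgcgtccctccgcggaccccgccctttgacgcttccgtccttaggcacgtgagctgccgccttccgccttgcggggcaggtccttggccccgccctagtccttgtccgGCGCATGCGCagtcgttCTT
Mrps18a: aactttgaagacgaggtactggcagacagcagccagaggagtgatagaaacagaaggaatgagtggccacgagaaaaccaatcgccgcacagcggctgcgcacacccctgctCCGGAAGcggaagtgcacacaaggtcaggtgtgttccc

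Members also often sat head to head with another gene. Of the 61 members with a window, 18 (29.5%) had a protein-coding gene on the opposite strand whose start site lay within 1000 bases, or overlapped by under 300, against 7.75% of 19005 protein-coding genes. Of the 17 such pairs, 1 joined 2 members, Mrpl46 and Mrps11, whose start sites are 234 bases apart and which had log2 fold changes of -0.02 ± 0.16 (SE) and -0.12 ± 0.20. Mrpl47 faces Ndufb5, a subunit of respiratory complex I, at 244 bases, and the pair had log2 fold changes of 0.01 ± 0.12 and 0.01 ± 0.10. Mrpl32 faces the proteasome subunit gene Psma2 at 210 bases, with -0.06 ± 0.12 and -0.05 ± 0.10. Mrps18b and its neighbour Ppp1r10, a regulatory subunit of protein phosphatase 1, had -0.38 ± 0.12 and -0.12 ± 0.14. Of the 14 pairs with both genes tested, 8 had estimates of the same sign and 6 of opposite sign. Among the latter, Mrpl57 and Ska3, a gene of the mitotic spindle, had -0.23 ± 0.13 and 0.26 ± 0.28, and Mrps7 and Gga3, a gene of vesicle sorting, had -0.20 ± 0.13 and 0.18 ± 0.17. No neighbour that was tested passed the test described next.

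After Cpeb4 knockdown, footprints on the mitoribosomal genes as a whole stayed close to their control level. The members together summed to 4812 and 4939 CPM in siSCR replicates 1 and 2 and to 4823 and 4722 CPM in siCpeb4 replicates 1 and 2, so the groups overlapped. This was 0.472% to 0.494% of all gene counts. Of the 76 members, 71 passed the low-count filter, and 1 fell and none rose (edgeR quasi-likelihood test, adjusted p under 0.05 over all 11335 genes tested). The background is 3.41% of all genes called, of which 1.87% of genes lower and 1.54% higher. Among the members 9 (12.7%) had an unadjusted edgeR p under 0.05, 7 of them lower, against 16.1% of all genes and 8.76% lower. The members called were Mrpl35 and Mrps34 with the replicate block (3.53% of all genes) and without siSCR replicate 1 (1.86%), likewise with no low-count filter (4.18%), and Mrps34 alone without siCpeb4 replicate 1 (2.80%). There was none without siSCR replicate 2 (2.26%) or siCpeb4 replicate 2 (2.33%), in DESeq2 (1.69%), in limma-voom (3.31%) or with library totals alone (3.07%), and there were 4 at an edgeR adjusted p under 0.10 (5.55%).

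The members' fold changes were small. They are changes in footprint abundance, which combines mRNA level and translation, since no matched RNA libraries were analysed here. On the log2 scale they ran from -0.53 to 0.32, and the median size without sign was 0.12, against 0.17 over all genes tested, whose estimates were also less precise (median SE 0.17 against 0.13). The 95% interval of the fold change lay wholly within 1.5-fold either way for 87.3% of the members and for 53.9% of all genes. The groups' libraries did not overlap for 35 members (49.3%), beside 46.0% of all genes, a share near the background. Of these, 22 members (31.0%) were lower and 13 (18.3%) higher, while 19.5% of all genes were lower and 26.5% higher, so the balance of directions differed. That difference was not tested. The plot of each member's estimate shows the intervals crowded around 0 in both subunits.

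**Figure D1:**
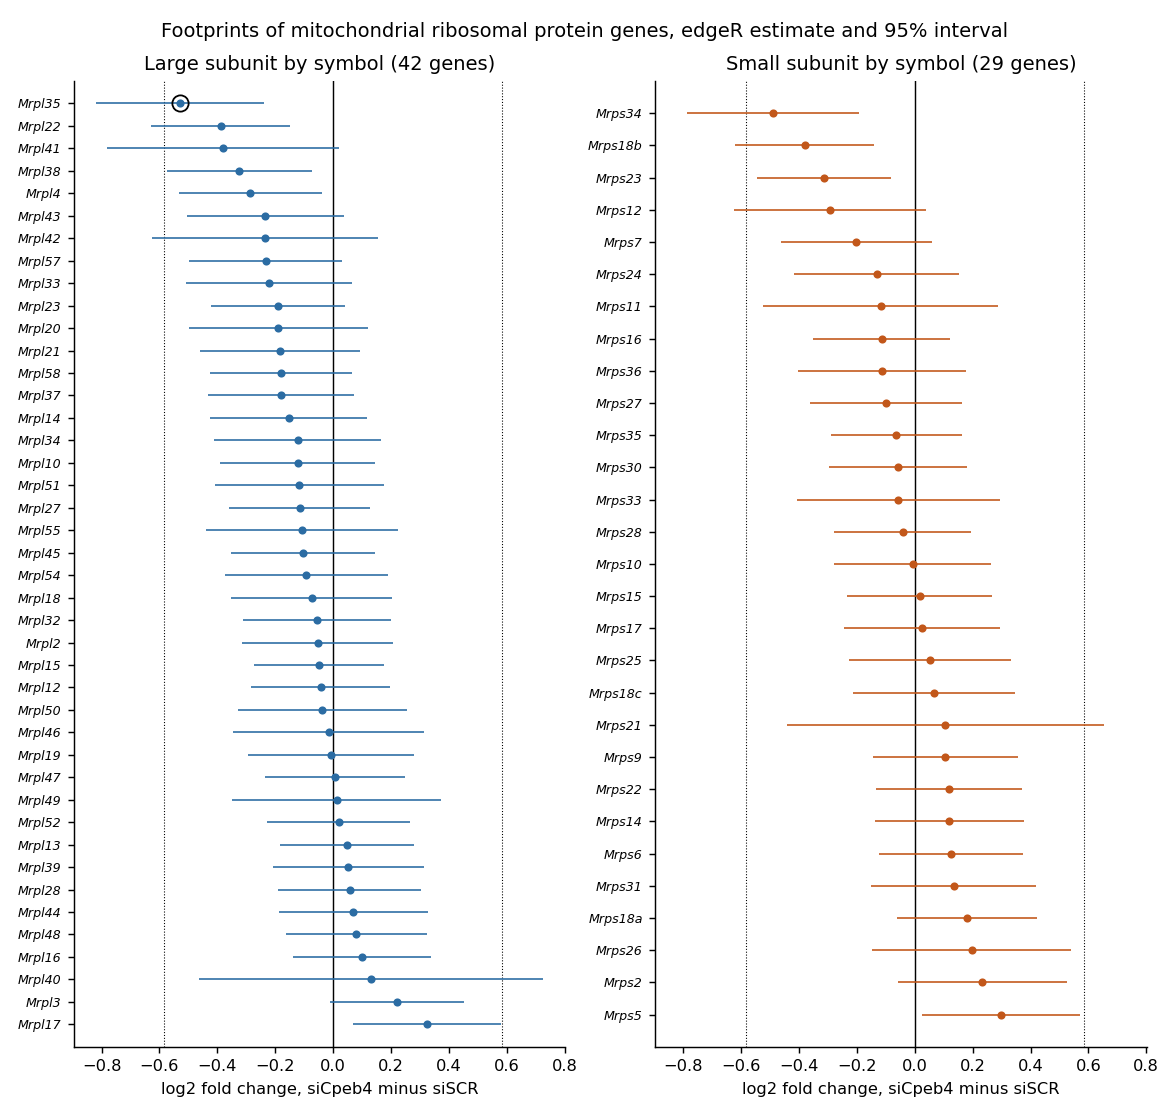
Log2 fold change of each of the 71 tested members (siCpeb4 minus siSCR, x axis, edgeR estimate with its 95% interval), 42 large-subunit genes on the left and 29 small-subunit genes on the right, each sorted. Dotted lines mark 1.5-fold either way; the circle marks Mrpl35, the member with an adjusted p under 0.05, at -0.53.

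The large-subunit genes lay slightly lower than the small-subunit genes. Of 42 tested large-subunit genes, 30 (71.4%) had a negative log2 fold change and the median was -0.10. Of 29 small-subunit genes, 15 (51.7%) were negative and the median was -0.01, while over all genes 50.5% were negative with a median of -0.00308. The difference of the medians, large minus small, was -0.09. It depended on 1 library, being -0.01 without siCpeb4 replicate 2, the library whose footprints were limited to 29 to 33 nt while the others held 29 to 34 nt. Relative to each gene's mean over the 4 libraries, the large-subunit median was 0.02 and 0.09 in siSCR replicates 1 and 2 and 0.01 and -0.08 in siCpeb4 replicates 1 and 2 on the log2 scale. The step between replicates of a group was thus about as large as the step between groups. Medians over members have no test of their own here.

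**Figure D2:**
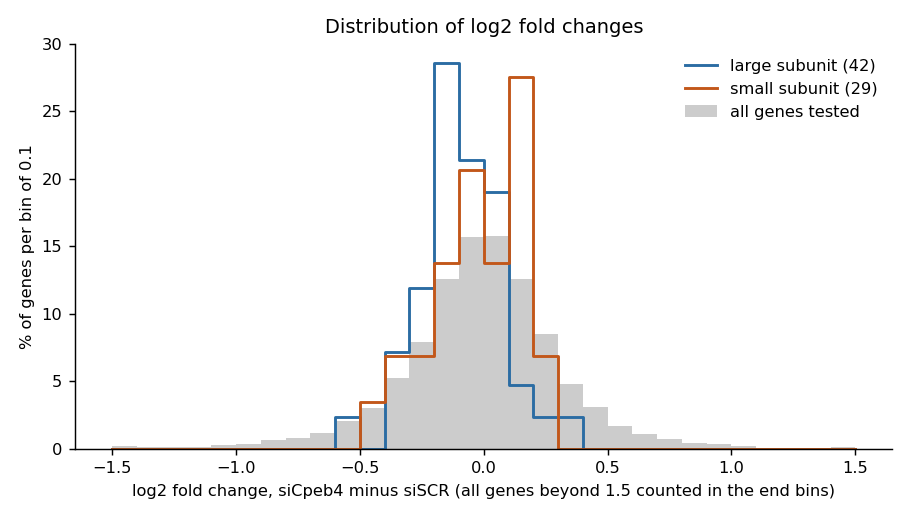
Percentage of genes per 0.1-wide bin of log2 fold change (siCpeb4 minus siSCR) for all 11335 genes tested (grey bars), 42 large-subunit genes (blue line) and 29 small-subunit genes (orange line). Both subunits lie inside the spread of all genes, with medians of -0.10 and -0.01.

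The summed footprints, in which genes with many counts weigh most, also put the large subunit slightly lower. By symbol, unlike the medians, they did so about equally in both siCpeb4 libraries. Large-subunit genes took 60.5% of the members' footprints in siSCR replicate 1 (95% exact binomial interval 59.9% to 61.0%) and 60.4% in siSCR replicate 2 (59.7% to 61.1%). They took 59.7% in siCpeb4 replicate 1 (59.0% to 60.3%) and 59.7% in siCpeb4 replicate 2 (59.1% to 60.3%). The groups did not overlap, but the intervals, which cover counting error only, did. Mrps30 and Mrps18a carry small-subunit names although both proteins sit in the large subunit of the mammalian mitoribosome. With them counted as large, the shares were 64.5% and 64.3% in the siSCR libraries and 63.9% and 64.2% in the siCpeb4 libraries, so the gap between the nearest libraries of the groups narrowed.

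**Figure D3:**
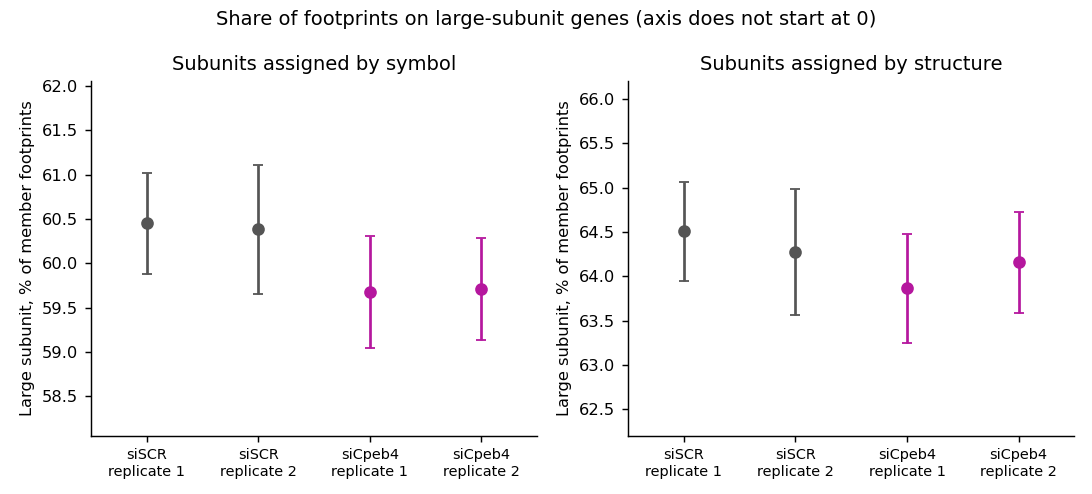
Share of the members' footprints that fell on large-subunit genes (%, y axis, which does not start at 0) in each library, with exact 95% binomial intervals for counting error, with subunits assigned by gene symbol (left) or by structure (right). The siSCR libraries lie at 60.5% and 60.4% and the siCpeb4 libraries at 59.7% and 59.7% by symbol, with overlapping intervals.

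Members were also read by ancestry, that is, proteins with a counterpart in the bacterial ribosome against proteins found in mitochondria alone. The 23 tested large-subunit genes of bacterial ancestry lay at a median of -0.07 on the log2 scale, and their summed level was 1881 and 1880 CPM in siSCR replicates 1 and 2 and 1839 and 1838 CPM in siCpeb4 replicates 1 and 2. The 18 small-subunit genes of that ancestry had a median of 0.02 and summed to 1116 and 1120 CPM in siSCR and 1145 and 1134 CPM in siCpeb4 libraries. In these sums the groups did not overlap, large-subunit genes being lower and small-subunit genes higher by a few percent. Of all genes tested, 46.0% did not overlap either. The small-subunit sum, taken by symbol, includes Mrps18a, whose protein sits in the large subunit. Mrps18a had 96.7 and 83.6 CPM in siSCR and 104 and 105 CPM in siCpeb4 libraries. Without Mrps18a, the small-subunit sums overlapped between the groups. The sums are scaled to library totals, where the median log2 fold change of all genes was 0.03. The small-subunit rise is about the size of that shift. The 18 large-subunit and 10 small-subunit genes specific to mitochondria had medians of -0.10 and -0.06, and their summed levels overlapped between the groups. These classes were assigned from textbook knowledge with the values known, and Mrpl55, Mrps36 and Mrps21l were left out of them.

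Mrpl35, a large-subunit protein with a bacterial counterpart, was the member that fell. Its level was 51.7 and 63.3 CPM in siSCR replicates 1 and 2 and 40.9 and 39.8 CPM in siCpeb4 replicates 1 and 2, so every siCpeb4 library lay below every control. The group means were 57.5 ± 8.23 and 40.3 ± 0.813 CPM (SD, n = 2), and the change was -0.53 ± 0.14 on the log2 scale (SE; edgeR adjusted p = 0.0374). The call ended without siSCR replicate 2 (edgeR adjusted p = 0.375), without siCpeb4 replicate 1 (0.0794) or replicate 2 (0.175), when counts were scaled to library totals alone (0.0601), in DESeq2 (adjusted p = 0.165) and in limma-voom (adjusted p = 0.0544).

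Proteins in or around the peptide exit tunnel, where the nascent chain leaves toward the inner membrane, had estimates on both sides of 0, and none passed. Mrpl22 had 91.4 and 92.3 CPM in siSCR replicates 1 and 2 and 70.6 and 72.6 CPM in siCpeb4 replicates 1 and 2, which gave -0.39 ± 0.12 on the log2 scale (edgeR adjusted p = 0.0695). Its replicates lay within 3 CPM of each other in either group, and the groups were well apart. Mrpl17, found at the rim of the tunnel exit, had 67.5 and 57.7 CPM against 81.0 and 80.0 CPM in the same order, and 0.32 ± 0.12 (edgeR adjusted p = 0.174), the highest estimate of the family. Mrpl23 had a log2 fold change of -0.19 ± 0.11. The membrane-facing Mrpl45, at -0.11 ± 0.12, and Mrpl44, mutated in an inherited cardiomyopathy, at 0.07 ± 0.12, lay near 0. Mrpl47 had a log2 fold change of 0.01 ± 0.12.

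The central protuberance, the crown of the large subunit, had 7 members with log2 fold changes from -0.32 to 0.13. Mrpl38 had 84.8 and 97.1 CPM in siSCR replicates 1 and 2 and 75.3 and 72.4 CPM in siCpeb4 replicates 1 and 2, that is -0.32 ± 0.12 on the log2 scale (edgeR adjusted p = 0.164). Its groups did not overlap. Mrpl58, a peptidyl-tRNA hydrolase that rescues stalled mitoribosomes, had -0.18 ± 0.12, from 87.6 ± 0.105 to 79.0 ± 5.46 CPM (SD, n = 2). Mrpl46 and Mrpl48 had -0.02 ± 0.16 and 0.08 ± 0.12.

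Core proteins near the catalytic centre were divided. Mrpl3, another cardiomyopathy gene, had 121 and 134 CPM in siSCR replicates 1 and 2 and 145 and 157 CPM in siCpeb4 replicates 1 and 2, and an estimate of 0.22 ± 0.11 (edgeR adjusted p = 0.344). Mrpl4 had 105 and 96.2 CPM against 90.6 and 78.8 CPM, and -0.29 ± 0.12 (edgeR adjusted p = 0.229). In both genes the groups did not overlap, in opposite directions, beside 46.0% of all genes tested without overlap. Mrpl2, Mrpl16 and Mrpl27 had log2 fold changes of -0.05, 0.10 and -0.12. Mrpl12, the stalk protein that also binds the mitochondrial RNA polymerase, had 111 and 101 CPM in siSCR and 111 and 99.8 CPM in siCpeb4 libraries. Its stalk partner Mrpl10 had a log2 fold change of -0.12 ± 0.13.

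Other large-subunit genes with small p or high levels gave the same range. Mrpl41 was at -0.38 ± 0.19 and Mrpl57 at -0.23 ± 0.13, and neither passed (edgeR adjusted p = 0.345 and 0.385). Mrpl15, with 165 and 185 CPM in siSCR and 171 and 174 CPM in siCpeb4 libraries, and Mrpl13, with 123 and 137 CPM against 134 and 139 CPM, had overlapping groups and log2 fold changes of -0.05 ± 0.11 and 0.05 ± 0.11.

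No small-subunit gene passed in edgeR, and 4 of 29 (13.8%, beside 16.1% of all genes) had an unadjusted edgeR p under 0.05 (DESeq2 and limma-voom called none). Mrps34, mutated in an inherited encephalopathy, had the smallest p. Its level was 58.0 and 69.2 CPM in siSCR replicates 1 and 2 and 50.7 and 41.3 CPM in siCpeb4 replicates 1 and 2. The groups did not overlap, and the log2 fold change was -0.49 ± 0.14 (edgeR adjusted p = 0.0624). It passed when siSCR replicate 1 (edgeR adjusted p = 0.0378) or siCpeb4 replicate 1 (0.0299) was left out, with no low-count filter (0.0162) and in the fit with a replicate block (0.0497). Mrps23 had 116 and 119 CPM in siSCR against 95.5 and 97.4 CPM in siCpeb4 libraries, and -0.31 ± 0.11 (edgeR adjusted p = 0.139), with replicates much closer than the groups.

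The Mrps18 paralogues, which are 3 relatives of a single bacterial protein, differed in their estimates. Mrps18b, in the small subunit, had 107 and 104 CPM in siSCR replicates 1 and 2 and 86.7 and 79.0 CPM in siCpeb4 replicates 1 and 2, and -0.38 ± 0.12 on the log2 scale (edgeR adjusted p = 0.0777). Mrps18a, in the large subunit, had 96.7 and 83.6 CPM against 104 and 105 CPM, and 0.18 ± 0.12 (edgeR adjusted p = 0.485). Mrps18c, in the small subunit, had 43.1 and 43.3 CPM against 47.5 and 45.0 CPM, and 0.07 ± 0.13 (edgeR adjusted p = 0.868). The groups did not overlap in any of the 3 genes, with Mrps18b lower and the others higher. This is a weak mark, since 46.0% of all genes tested did not overlap. The difference between paralogues was not tested.

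Genes along the mRNA path of the small subunit were also on both sides of 0. Mrps5, at the channel where mRNA enters, had 43.7 and 43.3 CPM in siSCR and 51.7 and 57.4 CPM in siCpeb4 libraries, and 0.30 ± 0.13 (edgeR adjusted p = 0.258). Mrps12, at the decoding centre, had 30.5 and 32.9 CPM against 25.2 and 27.4 CPM, and -0.29 ± 0.16 (edgeR adjusted p = 0.389). Neither gene's groups overlapped, as was so for 46.0% of all genes tested. Mrps2 had a log2 fold change of 0.23 ± 0.14, and the head protein Mrps7 one of -0.20 ± 0.13. The 6 head genes ranged from -0.20 to 0.13, and among them Mrps35 had 141 and 154 CPM in siSCR and 145 and 142 CPM in siCpeb4 libraries.

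**Figure D4:**
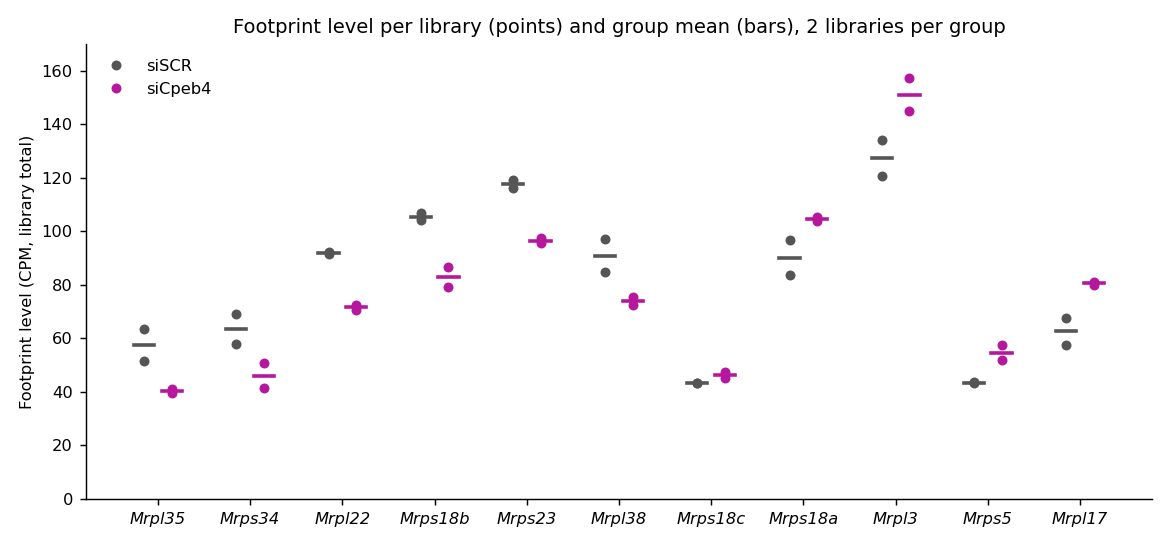
Footprint level (CPM scaled to library totals, y axis from 0) of 11 members in each library (points) with group means (bars), siSCR grey and siCpeb4 magenta, 2 libraries per group. The 11 were picked by hand from the 35 members whose groups did not overlap, as was so for 46.0% of all genes tested. Only Mrpl35 had an edgeR adjusted p under 0.05. From Mrpl35 to Mrpl38 the siCpeb4 points lie below the siSCR points, and from Mrps18c to Mrpl17 above, as in Mrpl35 (57.5 against 40.3 CPM) and Mrpl17 (62.6 against 80.5 CPM).

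Other named members stayed near their controls. Mrps30, with 98.6 and 109 CPM in siSCR and 98.2 and 105 CPM in siCpeb4 libraries, had -0.06 ± 0.11, and Mrps36 had -0.11 ± 0.14. RefSeq now lists Mrps36 as Kgd4, an adaptor of the ketoglutarate dehydrogenase complex and not a ribosomal protein. Mrps25 varied within the knockdown group, with 93.3 and 90.0 CPM in siSCR and 112 and 82.2 CPM in siCpeb4 replicates 1 and 2. The tested members with the fewest footprints, Mrpl40 and Mrps21, had a mean of 10.1 and 10.7 CPM over all libraries and intervals of -0.46 to 0.72 and -0.44 to 0.65 on the log2 scale, so a 1.5-fold rise was not excluded at this depth.

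Members outside these sites were mostly near 0. Mrps22, another gene linked to inherited cardiomyopathy besides Mrpl3 and Mrpl44, had 61.6 and 64.4 CPM in siSCR and 67.9 and 71.4 CPM in siCpeb4 libraries, with non-overlapping groups and 0.12 ± 0.12 on the log2 scale (edgeR adjusted p = 0.699). Mrpl43 (-0.23 ± 0.13), Mrpl37 (-0.18 ± 0.12) and Mrpl42 (-0.23 ± 0.19) had lower siCpeb4 libraries without overlap, and Mrps26 (0.20 ± 0.17) and Mrps6 (0.13 ± 0.12) higher ones. Such groups without overlap were found for 46.0% of all genes tested. Mrpl33 (-0.22 ± 0.14) and Mrpl20 (-0.19 ± 0.15) overlapped between the groups. The estimates of Mrpl19, Mrpl50, Mrpl52, Mrps10, Mrps15 and Mrps17 lay between -0.04 and 0.03, and their groups overlapped.

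Mrpl1, Mrpl30, Mrpl36, Mrpl53 and Mrps21l were listed at 0 in all 4 libraries. For sampling alone, a count of 0 allows up to 3 counts, or 0.508 to 0.844 CPM depending on the library. This bound does not cover reads lost in alignment or counting. Col1a2 was also listed at 0 in all 4 libraries, beside Col1a1 at a mean of 8227 CPM in siSCR. So were Cycs, Atp5pb, Ndufa1 and Cox7a1 of the respiratory chain and ATP synthase list. Whether any of these zeros reflects a low level was not tested. The tables are named as unique reads, with no multiply aligned read counted, and RefSeq names 40 pseudogenes for 23 of the members. These include 9 for Mrpl30 and 2 for Mrpl1, but none for Mrpl36, Mrpl53 or Mrps21l, and 21 members with a named pseudogene passed the filter. Their part in the zeros was not tested. Counts of members with such copies are uncertain.

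The 5 mitoribosomal proteins with other symbols had a median of -0.15 on the log2 scale, and edgeR called none (1 had an unadjusted p under 0.05, or 20% beside 16.1% of all genes). Dap3, a GTP-binding protein of the small subunit, had 110 and 125 CPM in siSCR replicates 1 and 2 and 87.3 and 104 CPM in siCpeb4 replicates 1 and 2, and -0.32 ± 0.12 (edgeR adjusted p = 0.163). Ptcd3, at the mRNA entry of the small subunit, had 0.13 ± 0.12. Chchd1, Aurkaip1 and Gadd45gip1 had -0.16, 0.06 and -0.15.

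Among the 62 tested genes of 4 lists that build or serve the mitoribosome, 3 changed (4.84%), a share near the 3.41% of all genes. Mtg1, a GTPase of large-subunit assembly, fell. It had 30.7 and 31.2 CPM in siSCR replicates 1 and 2 and 20.2 and 14.5 CPM in siCpeb4 replicates 1 and 2, or -0.87 ± 0.19 on the log2 scale (edgeR adjusted p = 0.01), and was the 1 called gene of 21 assembly factors tested (median -0.00132). Gfm1, the mitochondrial elongation factor G that moves the ribosome along the mRNA, rose 1.38-fold. It had 140 and 146 CPM in siSCR and 200 and 202 CPM in siCpeb4 libraries, or 0.46 ± 0.11 on the log2 scale (edgeR adjusted p = 0.0149), and was the 1 called gene of 13 translation factors (median 0.02). Their libraries did not overlap between the groups, which was so for 46.0% of all genes tested.

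Vars2, the mitochondrial valyl-tRNA synthetase, fell. It had 24.2 and 29.5 CPM in siSCR and 16.4 and 12.2 CPM in siCpeb4 libraries, or -0.94 ± 0.20 on the log2 scale (edgeR adjusted p = 0.0103), and was the 1 called of 15 mitochondrial synthetases (median -0.03). The Mtg1 and Vars2 calls ended without siCpeb4 replicate 2 (edgeR adjusted p = 0.13 and 0.135) and in DESeq2 (adjusted p = 0.0535 and 0.0507). The Gfm1 call ended without siSCR replicate 1 (edgeR adjusted p = 0.221) or replicate 2 (0.0707), and the Vars2 call without siSCR replicate 2 (0.079).

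The remaining members of these lists gave few small p. Fars2 (-0.43 ± 0.16) among the synthetases and Mtrf1 (-0.34 ± 0.17), a release factor, were not called. Ybey (0.79 ± 0.48), an endoribonuclease of small-subunit assembly with 16, 3, 16 and 22 counts in siSCR replicates 1 and 2 and siCpeb4 replicates 1 and 2, was not called either. Elongation factor Tu, Tufm, had 254 and 263 CPM in siSCR and 273 and 263 CPM in siCpeb4 libraries. Oxa1l, the insertase that receives new chains from the mitoribosome, had a log2 fold change of 0.03 ± 0.11. Of 13 genes of mitochondrial RNA synthesis and stability, none was called by edgeR and 2 had an unadjusted edgeR p under 0.05 (15.4%, beside 16.1% of all genes), the poly(A) polymerase Mtpap (0.52 ± 0.18, edgeR adjusted p = 0.117) and the mRNA-binding Slirp (-0.29 ± 0.14).

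**Figure D5:**
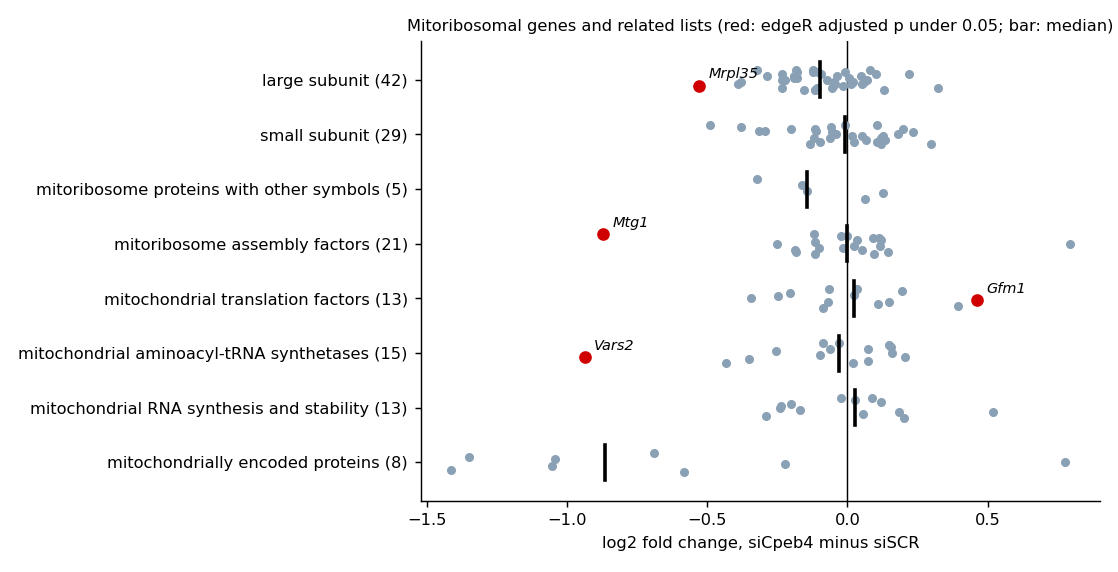
Log2 fold change (siCpeb4 minus siSCR, x axis) of each tested gene of the large and small subunits and of 6 related lists, with the number tested in brackets; red points have an edgeR adjusted p under 0.05 and black bars are medians. Mrpl35 (-0.53), Mtg1 (-0.87), Gfm1 (0.46) and Vars2 (-0.94) are the called genes, and mitochondrially encoded genes spread widest around a median of -0.87.

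Footprints on the mitochondrially encoded genes, the products of the mitoribosome, were scarce, and ND4 was listed at 0 in all 4 libraries. All 13 together summed to 75.0 and 112 CPM in siSCR replicates 1 and 2 and to 72.6 and 58.0 CPM in siCpeb4 replicates 1 and 2, so the siCpeb4 libraries lay lower, by little beside siSCR replicate 1. Of the 8 genes tested, 7 had negative log2 fold changes (median -0.87) and none was called by edgeR, although 6 had an unadjusted edgeR p under 0.05, 5 of them lower (75%, beside 16.1% of all genes). COX1, the catalytic subunit of cytochrome oxidase, had 259, 169, 184 and 148 counts in siSCR replicates 1 and 2 and siCpeb4 replicates 1 and 2, or 44.2, 47.6, 37.6 and 25.0 CPM. Its log2 fold change was -0.58 ± 0.17 (edgeR adjusted p = 0.062). ATP6, a subunit of ATP synthase, had 17, 21, 8 and 9 counts in the same order and -1.41 ± 0.48 on the log2 scale (edgeR adjusted p = 0.122). CYTB had 45, 74, 40 and 31 counts and ATP8 23, 40, 67 and 64 counts in the same order, and their log2 fold changes of -1.04 ± 0.36 and 0.78 ± 0.34 had opposite signs. The sources used here do not say how far the polysome fractions keep mitoribosomes. Only unique reads were counted, and how many reads of these genes were lost by that was not tested.

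For comparison, cytosolic ribosomal protein genes were taken by symbols that begin with Rpl or Rps and a number, with Rpsa and the Rplp genes. Nothing bounded the end of the symbol, so genes of other kinds with longer names can be among them. Of 101 such genes, 58 were tested and 16 were at 0 in all libraries, with only unique reads counted. The tested genes had a median log2 fold change of -0.18, from -0.87 to 0.89, with 45 negative and none called by edgeR. Of them 15 (25.9%) had an unadjusted edgeR p under 0.05, all lower, beside 16.1% of all genes and 8.76% lower. The nuclear-encoded respiratory chain list had a median of -0.09 over 44 genes, with 38 negative and 2 called lower (4.55%, beside 1.87% of all genes), the ATP synthase subunit gene Atp5pf and the cytochrome oxidase subunit gene Cox6a2. The median over mitoribosomal genes was -0.06, with 45 of 71 negative. Differences between these lists were not tested.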

How the data were processed

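Read counts per Ensembl gene were taken as deposited by the authors, with no normalisation, from footprints selected by length. The submitters' processing notes name Rnor_6.0, HTSeq 0.12, STAR 2.7 and Bowtie2; roles and strand setting are not given in the sources used here, so overlapping and antisense genes are uncertain. The 5 summary rows were left out (reads without a feature, 4.42% to 4.63%). Replicates differed beyond sampling noise (chi-square per degree of freedom 3.00 and 5.32).

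Levels are CPM, counts scaled to the library total. Changes come from edgeR 4.0.16 (R 4.3.3) and its quasi-likelihood test (TMM, filterByExpr with a minimum count of 10, group as the only term, Benjamini-Hochberg over 11335 genes, two-sided, adjusted p under 0.05). The fit was also run on simulated counts with the same dispersion for all genes, which does not test its p-values on these libraries. SE and 95% intervals come from the F statistic. Named members were any called, the 8 smallest p and the 5 highest CPM per subunit, and 7 set by symbol; of related lists, every called gene and the 2 smallest p (cytosolic ribosomal proteins by counts only). Other genes named with values were chosen after their values were seen. Members and lists were chosen with earlier results of these data known. Alternatives were RLE, upper-quartile and library-total scaling, DESeq2 1.42.0, limma-voom (limma 3.58.1), 2 other filters, a replicate block, a threshold of 0.10, omission of each library, subunits by structure and a minimum of 20 CPM. With 1 library left out, the lone library is assumed to vary like the other group. Promoters and pseudogene names are from RefSeq (GRCr8).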

Additional observations from a re-analysis of the deposited data

How the results depend on the processing

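The number of members called was 1 in the reported fit. It was 0 with library-total scaling (3.07% of all genes called), in DESeq2 (1.69%) and in limma-voom (3.31%), 2 when no filter was applied (4.18%) and 2 with the replicate block (3.53%), 4 at an adjusted p under 0.10 (5.55% of all genes), and from 0 to 2 when a library was left out. Same-numbered libraries did not deviate together (correlation of their deviations -0.11 across genes), so the replicate block, with 400 genes called against 386, shares a number only; the crossed replicate block, added after seeing the data, called 2 members and 479 genes. When a library was left out, the large-subunit median ranged from -0.16 to -0.046, the small-subunit median from -0.052 to 0.031 and their difference from -0.11 to -0.012. Library-total scaling moved the small-subunit median to 0.02 and upper-quartile scaling to 0.01, with the median of all genes at 0.03 and 0.01, so its sign is not settled. Genes called over all fell to 192 in DESeq2, 212 without siSCR replicate 1, 261 without siSCR replicate 2 and 267 without siCpeb4 replicate 2, and were 606 without the filter. For 29 named genes, 323 of 348 alternative values kept direction and side of the threshold. Most of these genes were not called, and staying uncalled was likely in advance, so this share says little about the calls. The called genes Mrpl35, Gfm1, Mtg1 and Vars2 each lost their call in some alternatives. Signs turned, for genes that were not called, with a library left out: log2 fold changes then ranged from -0.14 to 0.043 for Mrpl15, -0.043 to 0.14 for Mrpl13, -0.13 to 0.048 for Mrpl12, -0.14 to 0.012 for Mrps35, -0.14 to 0.022 for Mrps30, -0.20 to 0.28 for Mrps25 and -0.26 to 0.015 for Mrps36. The causes were not tested. With 2 libraries per group, the members' median SE was 0.13 on the log2 scale.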
